A study of Mus musculus with 32 samples.

Results

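The genes described here are 10 genes by which endothelial cells, the cells that line blood vessels, are recognised: *Pecam1*, *Cdh5*, *Tek*, *Tie1*, *Eng*, *Acvrl1*, *S1pr1*, *Car4*, *Ednrb* and *Plvap*. They were listed by symbol, with earlier results of these data known, out of 29511 genes in the count table, and all 10 were found and passed the filter on low counts in every comparison. RNA was sequenced from lungs and primary tumors of virgin female FVB/N mice aged 6 to 8 weeks when used. The hosts were wildtype (WT) or carried a germline *Clic4* deletion in all cells (KO), and KO and WT littermates came from heterozygous intercrosses. 6DT1 cells, a mouse mammary tumor line from an MMTV-Myc mouse that carries *Clic4*, had been injected into a mammary fat pad of the tumor-bearing hosts. The 6 groups were primary tumors at 14 days from 6 KO and 6 WT hosts, premetastatic lungs at 14 days from 6 KO and 6 WT hosts, and lungs without a tumor (control lungs) from 4 KO and 4 WT mice. The libraries came from snap-frozen tissue, so each value is a mean over all its cells, and RNA of the host and of the implanted cells was not told apart.

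Each library held 4446323 to 8318711 counts. *Clic4*, the targeted gene, measured 55.4 to 74.6 FPKM (fragments scaled to transcript length and library size) in the 10 KO lungs and 155 to 230 FPKM in the 10 WT lungs, without overlap. The gene total counts every exon, including those outside the deleted part. In primary tumors, where the implanted cells carry *Clic4* in both hosts, *Clic4* measured 58.9 to 69.0 FPKM in KO hosts and 74.7 to 82.2 FPKM in WT hosts. The 8 lung epithelial markers summed to at least 32658 FPKM in every lung and at most 7.80 FPKM in every tumor. Of the 6 tumor epithelial markers, 2 were higher and 4 lower in WT-host tumors than in 14-day WT lungs (median log2 -1.48). *Epcam* was lower, at a mean of 4.36 against 18.8 FPKM. *Krt8* (180 to 275 against 44.6 to 77.7 FPKM) and *Krt18* (131 to 183 against 36.4 to 60.0 FPKM) were higher. The sum of the 6 was 373 to 476 FPKM in WT-host tumors and 227 to 303 FPKM in 14-day WT lungs, without overlap.

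Endothelial cells join through VE-cadherin and PECAM-1, and receive signals through Tie receptors from angiopoietins, through ALK1 and endoglin from BMP9, and through S1PR1 from sphingosine-1-phosphate. The capillary bed of the lung is among the densest of the body and holds specialised capillary cells, of which aerocytes carry *Car4* and *Ednrb*. Clic4 itself has been linked to the formation of endothelial tubes.

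RefSeq promoters (250 bases before to 50 bases after the annotated start, assembly GRCm38.p6) were found for 5 of the 10 genes, namely *Tek*, *Tie1*, *Eng*, *Car4* and *Ednrb*. Those of *Pecam1*, *Cdh5*, *Acvrl1*, *S1pr1* and *Plvap* were not used here. Printed are the promoters of *Tie1*, *Eng* and *Car4*, because these genes passed the test in at least 1 lung comparison. Capitals mark matches on either strand to AGGAAG, a core that ETS factors bind and that many endothelial genes carry, or to TATAAA, the letters of a TATA box, which lies upstream of a start. Of 32851 promoters of this length, 35.4% held AGGAAG and 13.6% held TATAAA. The 3 lie at chr4:118489800-118490099 on the minus strand, chr2:32646345-32646644 on the plus strand and chr11:84957504-84957803 on the plus strand.
Tie1: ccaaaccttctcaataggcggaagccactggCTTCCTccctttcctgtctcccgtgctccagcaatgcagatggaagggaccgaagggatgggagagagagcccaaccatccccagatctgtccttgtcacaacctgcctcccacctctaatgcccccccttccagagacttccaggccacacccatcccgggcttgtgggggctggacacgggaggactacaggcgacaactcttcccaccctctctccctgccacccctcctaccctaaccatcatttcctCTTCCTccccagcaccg
Eng: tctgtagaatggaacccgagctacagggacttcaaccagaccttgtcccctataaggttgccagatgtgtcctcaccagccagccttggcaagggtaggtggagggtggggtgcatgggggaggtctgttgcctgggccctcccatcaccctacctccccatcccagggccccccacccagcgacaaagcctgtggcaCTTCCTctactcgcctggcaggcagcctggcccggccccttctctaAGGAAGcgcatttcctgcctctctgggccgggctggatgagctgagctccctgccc
Car4: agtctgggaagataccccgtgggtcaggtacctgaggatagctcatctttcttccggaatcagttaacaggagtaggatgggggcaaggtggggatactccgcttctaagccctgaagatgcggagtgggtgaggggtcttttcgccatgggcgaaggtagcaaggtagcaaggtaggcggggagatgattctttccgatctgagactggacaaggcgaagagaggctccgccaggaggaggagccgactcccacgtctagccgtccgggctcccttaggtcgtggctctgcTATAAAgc
*Tie1* and *Eng* each held 2 matches to AGGAAG, and *Car4* held 1 match to TATAAA and none to AGGAAG. The *Car4* match began 42 bases after the annotated start, which is not where a TATA box of that start would lie, and 1 of the *Tie1* matches also lay after its start. The promoter of *Tek* held 1 match to AGATAA, a core of GATA factor sites held by 11.2% of promoters, and the *Ednrb* promoter held no match to the 3 motifs. A match describes the letters and was not tested for binding.

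In lungs, the junction genes stood highest per transcript length. *Pecam1* (chromosome 11, 106654217 to 106750628, minus strand), which encodes the adhesion molecule PECAM-1 (CD31), had mean levels of 244 to 251 FPKM in the 4 lung groups, with SDs of 6.37 to 9.80. *Cdh5* (chromosome 8, 104101625 to 104144511), which encodes VE-cadherin, had mean levels of 195 to 212 FPKM. These 2 had the smallest ratio of highest to lowest lung among the 10 genes, with *Pecam1* between 237 and 262 FPKM in all 20 lungs and *Cdh5* between 187 and 227 FPKM. In every lung group, *Pecam1* lay above *Cdh5*, and *Cdh5* above the next gene, without overlap of samples.

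The receptors filled the middle of the order. *Acvrl1* (chromosome 15, 101128522 to 101145336), the gene of the BMP9 receptor ALK1, averaged 147 to 164 FPKM, and *S1pr1* (chromosome 3, 115710433 to 115715072, minus strand), the sphingosine-1-phosphate receptor of the vessel wall, averaged 130 to 176 FPKM. These 2 overlapped in all 4 lung groups, and their order differed between 14-day and control lungs. *Eng* (chromosome 2, 32646595 to 32682669), the co-receptor endoglin, averaged 111 to 133 FPKM. *Plvap* (chromosome 8, 71497765 to 71511752, minus strand), which encodes the protein of the fenestral and caveolar diaphragm, averaged 99.8 to 138 FPKM. *Tek* (chromosome 4, 94739289 to 94874976), the gene of the angiopoietin receptor Tie2, averaged 106 to 117 FPKM, with neighbours in this part of the order mostly overlapping. The largest spread within a lung group was that of *S1pr1* in 14-day KO lungs, from 83.4 to 179 FPKM.

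The 2 capillary genes and *Tie1* stood lowest. *Car4* (chromosome 11, 84957786 to 84966044), a membrane-bound carbonic anhydrase, averaged 69.7 to 77.0 FPKM. *Tie1* (chromosome 4, 118471191 to 118490061, minus strand), the receptor that pairs with Tie2, averaged 41.0 to 49.7 FPKM. *Ednrb* (chromosome 14, 103814625 to 103844402, minus strand), the type B endothelin receptor, averaged 23.2 to 26.9 FPKM. In all 4 lung groups, *Tie1* lay below *Car4* and *Ednrb* below *Tie1* without overlap. *Tek* and *Tie1* share chromosome 4 with *Clic4*, at 40.3 and 16.7 megabases from it.

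**Figure D1:**
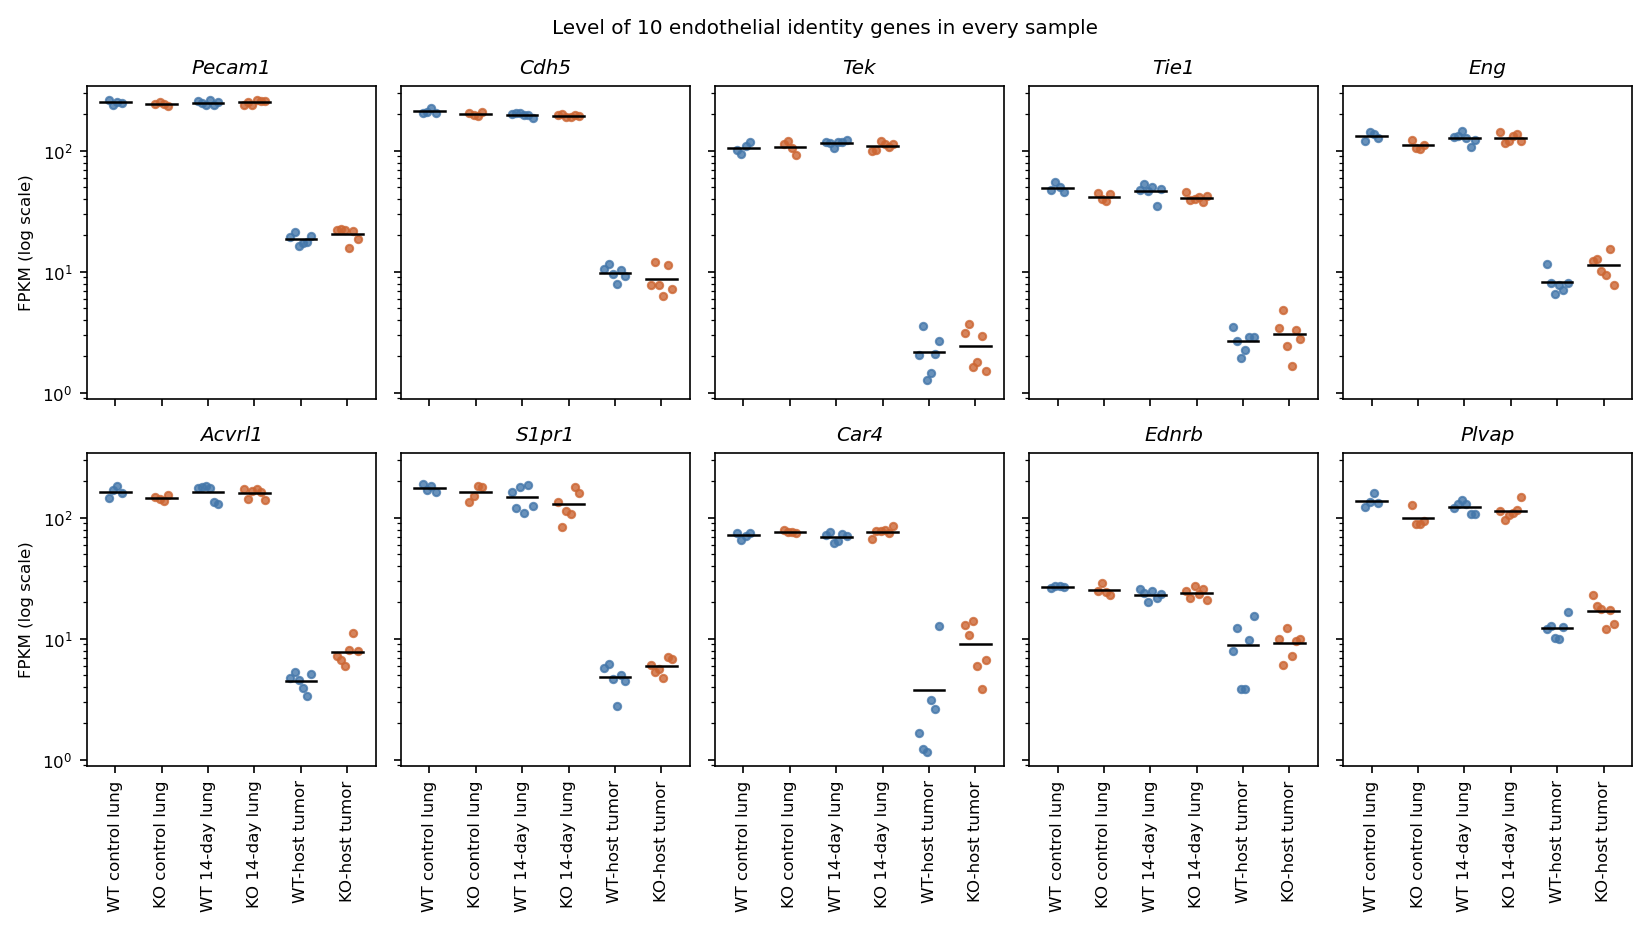
Level of each of the 10 genes in FPKM (log axis) in every sample of the 6 groups, blue for WT and orange for KO hosts, with the group mean as a black line. All 10 genes lay lower in every tumor than in every 14-day lung of the same host genotype, with *Ednrb* closest (3.82 to 15.5 FPKM in WT-host tumors, 20.03 to 25.7 FPKM in 14-day WT lungs).

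All 10 genes were lower in primary tumors than in 14-day lungs. In WT hosts, edgeR's quasi-likelihood test called 12773 of 16825 genes at an FDR of 0.05, 75.9% of those tested, and 6457 (38.4%) were lower in tumors. All 10 endothelial genes were called lower, with a median log2 fold change of -4.16, while the median over all genes was -0.0045. In KO hosts, 12514 genes (74.4%) were called and 6256 (37.2%) were lower, among them all 10 again, with a median of -3.62 (0.01 over all genes). In whole tissue, fewer endothelial cells and less RNA of these genes per cell cannot be told apart. Samples did not overlap for any of the 10 genes in either host, where 27.3% of 16802 genes lay wholly lower in WT-host tumors and 27.6% in KO-host tumors.

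The size of the difference varied among the genes. *Tek* differed most, with 2.18 ± 0.84 FPKM in WT-host tumors (SD, n = 6) against 117 ± 5.98 FPKM in 14-day WT lungs (SD, n = 6). Tumors thus held 1.87% of the lung level of *Tek* (log2 fold change -5.76, SE 0.15, adjusted p = 3.44e-25, edgeR). *Acvrl1* reached 2.76% of the lung level in WT hosts (log2 -5.20, SE 0.11) and *S1pr1* 3.25% (log2 -4.88, SE 0.19). In WT hosts these 3 receptor genes were the lowest in tumors relative to lungs, but without WT-host tumor 6 *Car4* (log2 -5.55) lay below *Acvrl1* and *S1pr1*. *Cdh5* held 4.94% of its lung level, *Car4* 5.42%, *Tie1* 5.74% and *Eng* 6.38%. *Pecam1*, which leukocytes and platelets also express, held 7.47%, at 18.7 ± 1.88 FPKM (SD, n = 6).

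*Plvap* and *Ednrb* were the least reduced. *Plvap* held 10.0% of its WT lung level, at 12.3 ± 2.40 FPKM (log2 -3.26, SE 0.14). *Ednrb* held 38.3%, at 8.90 ± 4.66 FPKM (log2 -1.31, SE 0.20, adjusted p = 5.96e-07, edgeR), and its values in WT-host tumors ran from 3.82 to 15.5 FPKM around a median of 8.92. The lung level of *Ednrb* was 2.61 times the tumor level in both hosts. In KO hosts, the same measure was lowest for *Tek* (2.24%), *Cdh5* (4.495%) and *S1pr1* (4.56%), and it was 4.91% for *Acvrl1*, 14.9% for *Plvap* and 38.3% for *Ednrb*. In tumors *Pecam1* and *Plvap* were the highest of the 10 genes on average, and *Tie1* and *Tek* the lowest, in both hosts. Nearly all neighbours in the tumor order overlapped.

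The counts behind these values were 26 to 82 for *Tek* and 32 to 86 for *Tie1* in a tumor, and 5 to 64 for *Car4*, so these 3 were measured with the largest counting error. All 10 genes kept the call in both hosts under every alternative, except that *Car4* was not tested where at least 10 counts were required in every sample. Without tumor 6 of the WT hosts, the log2 difference of *Car4* was -5.55 in place of -4.33.

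Other endothelial lists moved with these genes between the tissues. Of 22 other pan-endothelial genes, all 22 were lower in WT-host tumors, with a median of -4.12, among them *Ptprb* (log2 -5.50), *Calcrl* (-7.08), *Ramp2* (-5.67) and *Icam2* (-5.50). All 9 arterial genes were lower (median -4.31), all 8 general capillary genes (median -3.61), all 5 measured lymphatic genes (median -2.79) and 8 of 10 aerocyte genes (median -4.00). Of the 8 venous genes, 6 were lower and 2 higher, with a median of -1.31. The 2 higher were the leukocyte adhesion molecule *Selp* (2.03) and the chemokine-binding receptor *Ackr1* (1.61), both picked here after their values were seen. The tip cell list was mixed, with 7 of 14 genes lower and 3 higher, among them the laminin gene *Lamb1* (1.63) and the netrin receptor gene *Unc5b* (1.52) beside the Notch ligand gene *Dll4* (-3.66).

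The partners of each gene's pathway differed in how far they were reduced in WT-host tumors. In the angiopoietin and Tie list, 6 of 9 genes were lower and 2 higher, among them *Ptprb*, the phosphatase of Tie2 (-5.50), the ligand gene *Angpt1* (-4.93) and the adaptor gene *Grb14* (-6.43). In the BMP9, ALK1 and endoglin list, 13 of 16 genes tested were lower and 1 higher, among them the type II receptor gene *Bmpr2* (-2.64) and the ALK1 targets *Tmem100* (-6.67), *Smad6* (-5.87) and *Hey1* (-5.24). In the sphingosine-1-phosphate list, 7 of 10 were lower, among them the receptor genes *S1pr3* (-2.28) and *S1pr4* (-3.18) and the transporter gene *Spns2* (-1.12). The lyase gene *Sgpl1* was higher (1.05). The endothelin list had 4 of 5 genes lower, namely *Ece1*, the converting enzyme (-1.58), the type A receptor gene *Ednra* (-2.62), the ligand gene *Edn1* (-4.54) and *Edn3*, which was listed at 0 in all WT-host tumors. The fifth, the converting enzyme gene *Ece2*, was higher (2.09).

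Other carbonic anhydrases were mixed. Of 8 tested, 5 were higher in WT-host tumors and 3 lower, with a median of 1.95, and those with the smallest p were *Car8* (-6.25), *Car14* (-6.43), the mitochondrial *Car5b* (2.05) and *Car2* (-2.53). All 10 genes for VE-cadherin partners were lower, but less so than *Cdh5*, with a median of -0.87, such as *Jam2*, a junctional adhesion molecule (-3.02), *Ctnna1* (-0.83), *Ctnnd1* (-0.73) and the junction scaffold gene *Tjp1* (-0.90). Of the 7 caveolar genes beside *Plvap*, 6 were lower and 1 higher (median -0.25), with the cavin gene *Sdpr* at -3.91, *Cav1* at -1.27 and *Prkcdbp* at 1.70. Several of these genes are active in epithelial cells or fibroblasts too, and among 9 pericyte and mural genes 7 were lower and 1 higher (median -1.16).

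The 10 genes also differed in their ratio to *Cdh5*, taken per sample as a log2 ratio of TMM-normalized CPM (counts scaled to library size), which sets aside how much *Cdh5* RNA a sample held. Of the other 9, 4 lay wholly higher relative to *Cdh5* in WT-host tumors than in 14-day WT lungs, namely *Pecam1* (by 0.57), *Eng* (0.51), *Plvap* (1.02) and *Ednrb* (2.78). *Cdh5* itself was lower in tumors, and the same held for 87.5% of all 16824 other genes tested. Those wholly lower were *Tek* (-1.53), *Acvrl1* (-0.92) and *S1pr1* (-0.61), which held for 2.49% of all genes. *Tie1* (0.22) and *Car4* (-0.81) overlapped between tissues. No test was run on these ratios, which are a description.

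**Figure D2:**
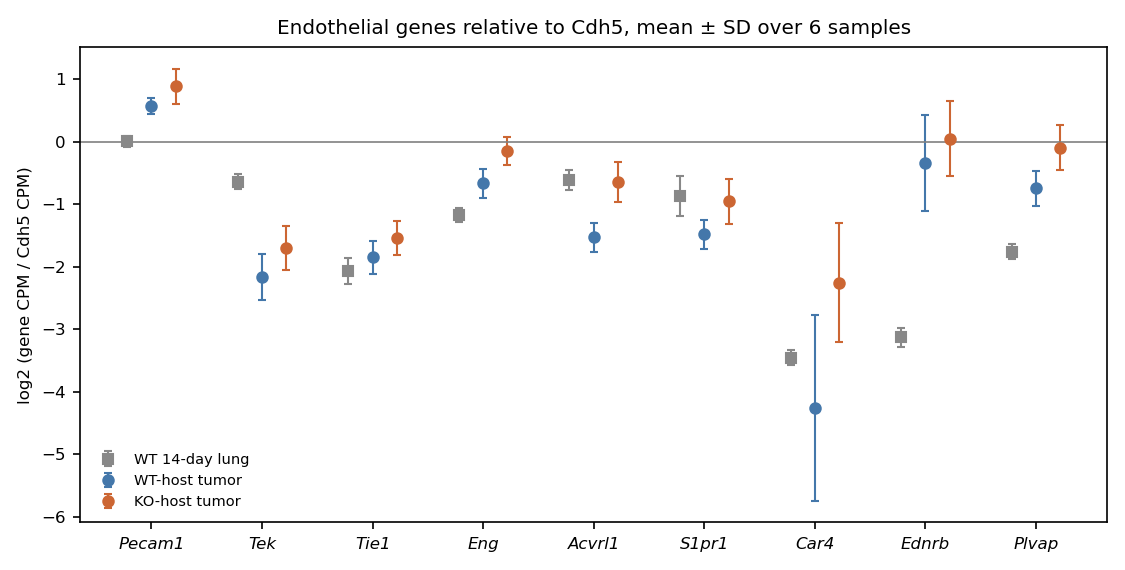
Log2 ratio of each gene's CPM to that of *Cdh5*, mean ± SD over 6 samples, in 14-day WT lungs (grey), WT-host tumors (blue) and KO-host tumors (orange). *Ednrb* moved from -3.13 ± 0.15 in lungs to -0.35 ± 0.77 in WT-host tumors, and *Acvrl1* lay at -1.53 ± 0.24 in WT-host and -0.65 ± 0.32 in KO-host tumors.

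Between tumors of KO and WT hosts, which asks whether host Clic4 bears on these genes in the primary tumor, *Acvrl1* was the 1 gene of 10 past an FDR of 0.05. The test called 347 of 13830 genes (2.51%), of which 279 (2.02% of those tested) were higher in KO hosts. *Acvrl1* measured 5.95 FPKM in the lowest, 7.61 in the median and 11.2 in the highest tumor of KO hosts. In WT hosts it measured 3.38, 4.68 and 5.30 FPKM in the same order. Every KO-host tumor thus lay above every WT-host tumor, which held for 1.05% of 13816 genes. The means were 7.85 ± 1.81 and 4.52 ± 0.74 FPKM (SD, n = 6 each), a log2 fold change of 0.74 (SE 0.13, adjusted p = 0.00491, edgeR). The adjusted p lay between 0.00235 and 0.0209 with each tumor left out in turn and between 4.97e-05 and 0.0247 over 9 other alternatives, but the 1.74-fold difference in mean FPKM is under the 2-fold limit that the study set for tumors.

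*Eng*, which acts with ALK1, measured 7.84 to 15.3 FPKM in KO hosts (median 11.2) and 6.50 to 11.5 FPKM in WT hosts (median 7.90). The groups overlapped, and the log2 fold change of 0.38 (SE 0.13) had an adjusted p of 0.177 (edgeR). Of the 18 genes of the BMP9, ALK1 and endoglin list, 11 could be tested in tumors and none was called, with a median of -0.0009 and 5 of 11 above 0. The ligand gene *Gdf2* was listed at 0 in all KO-host tumors.

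*Plvap* measured 12.1 to 23.1 FPKM in KO hosts (median 17.4) and 9.92 to 16.5 FPKM in WT hosts (median 12.3). Its log2 fold change was 0.51 (SE 0.17, unadjusted p = 0.00865, adjusted p = 0.148, edgeR). WT-host tumor 6 was the highest of its group, and without it the value was 0.63 with an adjusted p of 0.0484, past the FDR. With another tumor left out it ran up to 0.278, and 9 other alternatives gave adjusted p-values of 0.0802 to 0.236. None of the 7 caveolar genes was called between hosts, and none of the 7 lay above 0 (median -0.12).

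*Car4* measured 13.1, 10.9, 13.9, 6.01, 3.83 and 6.74 FPKM in tumors 1 to 6 of KO hosts. In WT hosts it measured 1.66, 1.24, 1.17, 3.14, 2.63 and 12.8 FPKM in tumors 1 to 6. Only WT-host tumor 6 overlapped the KO-host tumors, and the log2 fold change over all tumors was 1.22 (SE 0.61, adjusted p = 0.360, edgeR). Without that tumor it was 2.48, past the FDR of 0.05 (adjusted p = 0.00352), and the adjusted p ran up to 0.559 with another tumor left out and from 0.153 to 0.479 over 8 other alternatives. The epithelial markers *Epcam* (11.7 FPKM), *Cdh1* (10.5 FPKM) and *Elf5* (6.02 FPKM) were also highest in WT-host tumor 6 among the WT-host tumors, whose others reached 4.04, 2.68 and 1.45 FPKM. Of the same list of 6 tumor epithelial markers, *Krt19* was also highest there (35.7 FPKM, others up to 24.2), while *Krt8* (180.3 FPKM) and *Krt18* (131 FPKM) were lowest in that tumor among the WT-host tumors. In KO hosts *Epcam*, *Cdh1* and *Elf5* ran from 1.96 to 12.6, from 1.99 to 8.85 and from 1.29 to 8.68 FPKM. The part of epithelial cells in the *Car4* values was not tested. None of 6 other carbonic anhydrases tested was called (median 0.08).

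**Figure D3:**
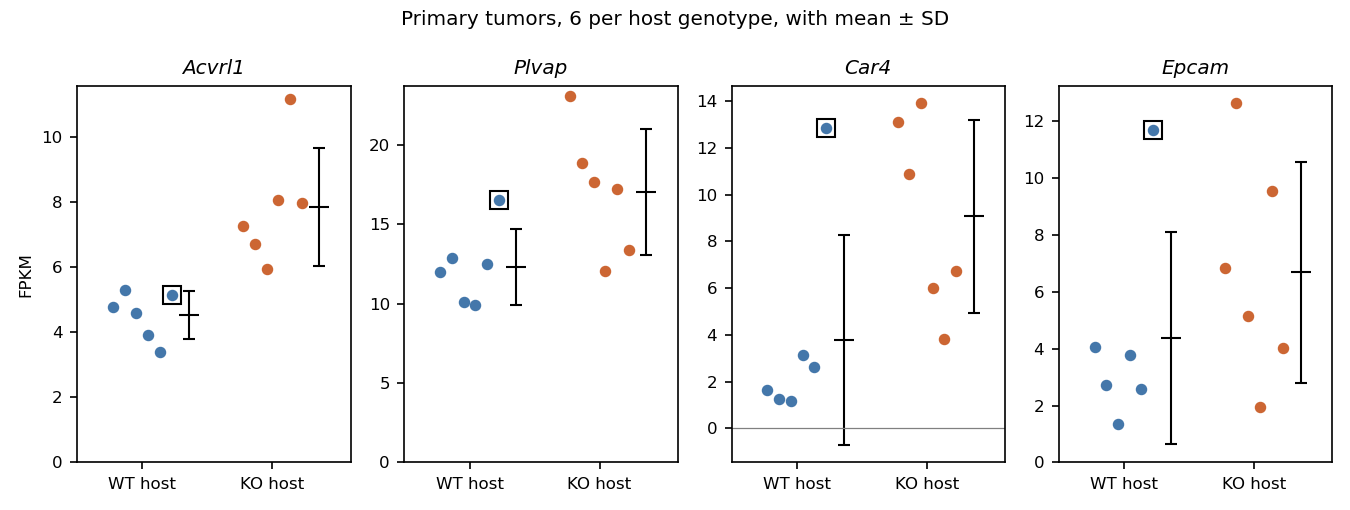
FPKM (linear axis) of *Acvrl1*, *Plvap*, *Car4* and the epithelial marker *Epcam* in each primary tumor of 6 WT (blue) and 6 KO (orange) hosts, with mean ± SD at the side and WT-host tumor 6 in a square. *Acvrl1* did not overlap between hosts, while WT-host tumor 6 lay at 12.8 FPKM of *Car4*, above the 1.17 to 3.14 FPKM of the other WT-host tumors.

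The remaining genes gave no call between tumors. *S1pr1* had a log2 fold change of 0.36 (SE 0.15, unadjusted p = 0.0337, adjusted p = 0.279), and none of the 7 sphingosine-1-phosphate genes tested was called. *Tek* had 0.35 (SE 0.26), *Tie1* 0.21 (SE 0.22), *Pecam1* 0.18 (SE 0.11) and *Ednrb* 0.09 (SE 0.30). *Cdh5* was the 1 gene below 0, at -0.11 (SE 0.15), with 6.36 to 12.1 FPKM in KO hosts and 7.90 to 11.5 FPKM in WT hosts. The median over the 10 genes was 0.35, with 9 of 10 above 0 and 4 of 10 at an unadjusted p under 0.05, while the median over all genes was -0.01 and 2146 of 13830 had such a p.

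Other endothelial lists did not give calls in the same comparison, except for the venous list. Of 17 other pan-endothelial genes tested, none was called, with 12 above 0 and a median of 0.12. None of 8 general capillary, 8 aerocyte, 5 arterial, 3 lymphatic and 13 tip cell genes was called, and the medians lay between -0.14 and 0.15. In the venous list *Vcam1*, an adhesion molecule for leukocytes that other stromal cells also carry, was higher (log2 0.83, SE 0.19, adjusted p = 0.0305, edgeR). Relative to *Cdh5*, *Acvrl1* was higher in KO-host tumors by 0.89 without overlap, as were 1.28% of all genes tested, and the other 8 genes overlapped between hosts.

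Markers of other cells varied beside these values. The 10 leukocyte and macrophage markers summed to 544 to 1177 FPKM in KO-host and 365 to 864 FPKM in WT-host tumors, and all 9 tested lay above 0 with a median log2 fold change of 0.46 and no call. The 9 pericyte and mural markers summed to 48.9 to 87.9 FPKM in KO-host and 50.8 to 92.1 FPKM in WT-host tumors, with no call among the 8 tested. The 5 red cell markers summed to 80.2 to 201 FPKM in KO-host and 60.7 to 119.8 FPKM in WT-host tumors, with 4 of 4 tested above 0 (median 0.58) and no call. The 6 fibroblast markers summed to 394 to 808 FPKM in KO-host and 395 to 786 FPKM in WT-host tumors, and all 5 tested lay above 0 (median 0.15) with no call. The 5 platelet markers summed to 16.7 to 32.5 FPKM in KO-host and 28.0 to 58.1 FPKM in WT-host tumors, and both that were tested lay below 0 (median -0.39) with no call. The tumor epithelial markers summed to 318 to 383 FPKM in KO-host and 373 to 476 FPKM in WT-host tumors, with 4 of 6 above 0 (median 0.50) and no call. Macrophages can also express *Eng*, and lymphocytes express *S1pr1*. No defining leukocyte or mural marker was at 0 in a whole tumor group, and the part of these cells in the endothelial values was not tested.

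In premetastatic lungs at 14 days, KO against WT, *Car4* was the 1 gene of 10 called at an FDR of 0.25, where 138 of 16029 genes (0.861%) were called. *Car4* measured 66.5 to 85.4 FPKM in KO lungs (median 77.9) and 61.8 to 77.0 FPKM in WT lungs (median 71.1). The groups overlapped, and the log2 fold change was 0.20 (SE 0.05, adjusted p = 0.218, edgeR). The call was lost in 11 of 20 fits that left out 1 lung (14-day KO lungs 2, 3, 5 and 6, 14-day WT lungs 1, 3, 4 and 5, control KO lungs 3 and 4 and control WT lung 1), with adjusted p-values of 0.252 to 0.423. Over 10 other alternatives the adjusted p ran from 0.126 to 0.599, and 5 of them lost the call. *Tie1* passed without 14-day WT lung 5 (adjusted p = 0.186, of a range of 0.186 to 0.714 over the leave-outs), and with GC offsets without (0.234) or with (0.111) the block, of a range of 0.111 to 0.726 over 10 alternatives. The other 9 genes had log2 fold changes between -0.18 (*S1pr1*, SE 0.16, and *Tie1*, SE 0.08) and 0.05 (*Ednrb*, SE 0.07).

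In control lungs, *Plvap* was the 1 gene called, where 156 genes (0.973%) were called. *Plvap* measured 127, 89.4, 88.6 and 94.4 FPKM in KO lungs 1 to 4 and 123, 134, 161 and 133 FPKM in WT lungs 1 to 4. KO lungs 2 to 4 lay below every WT lung, and KO lung 1 lay within the WT range. The log2 fold change was -0.47 (SE 0.12, adjusted p = 0.220, edgeR). The call was lost without control KO lungs 2, 3 or 4, control WT lungs 2 or 3, or 14-day WT lung 1, with adjusted p-values of 0.261 to 0.481. With offsets for the GC content of transcripts, added after seeing the data, the difference was -0.25 (adjusted p = 0.665, of a range of 0.0367 to 0.665 over 10 alternatives, 6 of which lost the call). The same offsets gave 13 calls over all genes, and the share of calls higher in KO went from 49.4 to 30.8% (33.3% with the replicate number as a block as well).

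*Eng* and *Tie1* had the next largest differences in control lungs. *Eng* measured 123, 105, 104 and 112 FPKM in KO lungs and 121, 144, 139 and 127 FPKM in WT lungs, with KO lung 1 just above WT lung 1. The log2 fold change was -0.29 (SE 0.09, adjusted p = 0.255, edgeR), and it passed the FDR without 14-day KO lung 2, control KO lung 1, 14-day WT lungs 3 or 5, or control WT lungs 1 or 4 (adjusted p 0.174 to 0.242). Over 10 other alternatives the adjusted p of *Eng* ran from 0.0786 to 0.654, and 3 passed. *Tie1* measured 44.4, 40.3, 38.7 and 43.7 FPKM in KO lungs and 47.6, 55.2, 50.02 and 45.8 FPKM in WT lungs, and every KO lung lay below every WT lung, which held for 499 of 16016 genes (3.12%). Its log2 fold change was -0.26 (SE 0.10, adjusted p = 0.327, edgeR), and of the leave-outs it passed the FDR without 14-day WT lung 5 (adjusted p = 0.219), and 2 of 10 other alternatives passed (range 0.180 to 0.808). In all, 9 of the 10 genes were below 0, with a median of -0.11, while the median over all genes was -0.0039.

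Over both settings together, which uses the same 20 lungs, 3 genes were called among 350 over all genes (2.18%). *Car4* was higher in KO lungs (log2 0.15, SE 0.04, adjusted p = 0.187), and *Tie1* (-0.22, SE 0.06, adjusted p = 0.187) and *Plvap* (-0.28, SE 0.08, adjusted p = 0.188) were lower. Each call was lost in some leave-one-out fits, 9 of 20 for *Car4*, 5 for *Tie1* and 9 for *Plvap*, with adjusted p-values up to 0.325, 0.389 and 0.361. Over 9 other alternatives the adjusted p ran from 0.0679 to 0.443 for *Car4*, from 0.0499 to 0.297 for *Tie1* and from 0.0464 to 0.335 for *Plvap*. Control KO lungs 2 and 3 and control WT lungs 2 and 3 were among the lungs whose removal ended all 3 calls. *Car4* also lost the call without 14-day KO lung 6, control KO lung 1, 14-day WT lungs 1 or 3, or control WT lung 1. *Tie1* also lost it without 14-day WT lung 2, and *Plvap* without 14-day KO lungs 2 or 3, control KO lung 4, or 14-day WT lungs 2 or 3. *Eng* (-0.13, SE 0.06, adjusted p = 0.394) passed without 14-day WT lung 5 (adjusted p = 0.240, of 0.240 to 0.628 over the leave-outs). With all lungs in the fit, no difference of the 10 genes between KO and WT lungs passed 1.5-fold. Without control KO lung 1, that of *Plvap* in control lungs did (log2 -0.60, adjusted p = 0.148).

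**Figure D4:**
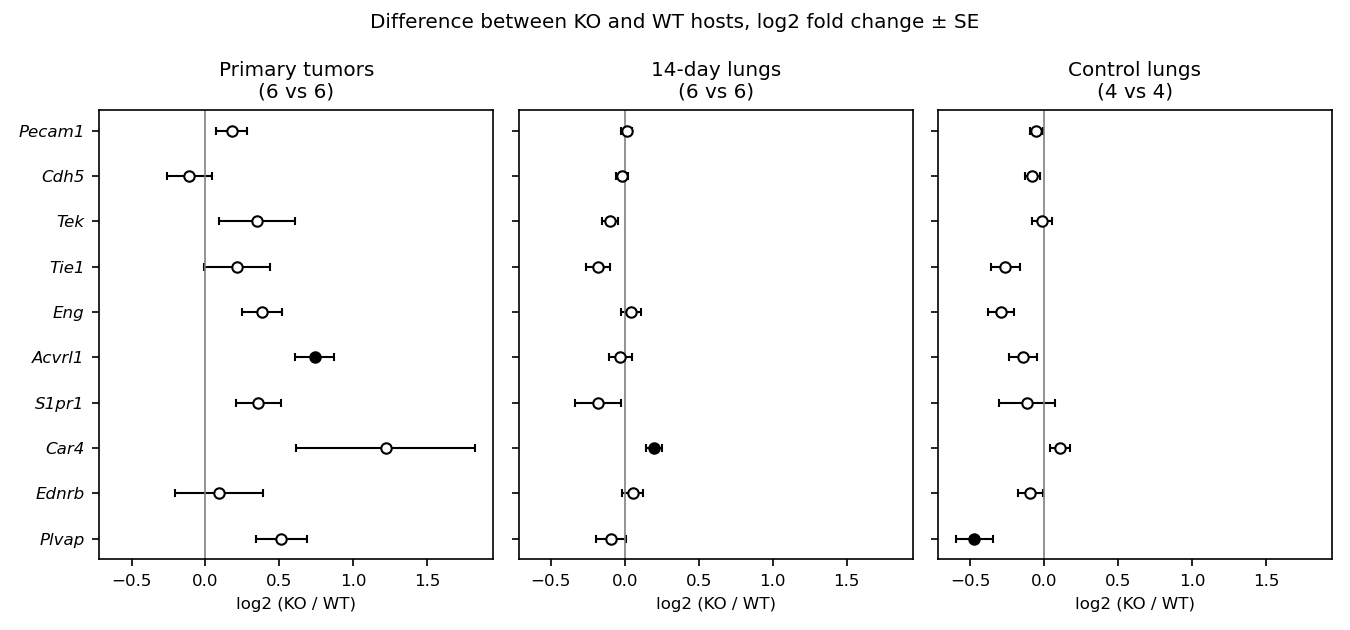
Log2 fold change (KO over WT) with its SE from edgeR for the 10 genes in primary tumors, 14-day lungs and control lungs, with filled points past the FDR (0.05 in tumors, 0.25 in lungs). *Acvrl1* at 0.74 in tumors, *Car4* at 0.20 in 14-day lungs and *Plvap* at -0.47 in control lungs are filled.

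Other endothelial genes in the KO lungs were compared as well. At 14 days, 2 of 22 other pan-endothelial genes were lower and none higher, the VEGF receptor gene *Flt1* (-0.23, SE 0.04, adjusted p = 0.0360) and *Ptprb* (-0.22, SE 0.05, adjusted p = 0.103). Of 5 lymphatic genes, *Lyve1* (-0.92, SE 0.18, adjusted p = 0.0491) and *Flt4* (-0.26, SE 0.07, adjusted p = 0.235) were lower. The lymphatic sum was 43.8 to 82.7 FPKM in 14-day KO lungs and 77.0 to 127 FPKM in 14-day WT lungs. Of 8 general capillary genes, *Sema3c* was higher (0.31, SE 0.06, adjusted p = 0.0370) and *Ptprb*, which this list holds too, lower, and of 14 tip cell genes *Esm1* was lower (-0.77, SE 0.20, adjusted p = 0.143). In control lungs, no gene of the other endothelial lists was called, and 18 of the 22 other pan-endothelial genes lay below 0 (median -0.09). Over both settings, the apelin receptor gene *Aplnr* (-0.26) and the caveolar gene *Ptrf* (-0.19) were also lower.

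Beside the lung values, the 10 leukocyte markers summed to 1616 to 3129 FPKM and overlapped between genotypes. The 9 pericyte and mural markers summed to 204 to 226 FPKM in 14-day KO and 202 to 218 FPKM in 14-day WT lungs. The 5 red cell markers ran from 6076 to 23757 FPKM over all lungs, with the highest in a 14-day KO lung. All 5 lay above 0 in KO against WT at 14 days (median 0.44) and over both settings (median 0.23), where *Car4* was called, and 2 of 5 did in controls (median -0.06). No gene of these 3 lists was called between genotypes in lungs, while the fibroblast marker *Col1a1* was higher in 14-day KO lungs (0.65, SE 0.18, adjusted p = 0.205). The 5 platelet markers summed to 27.4 to 38.9 FPKM in control KO and 30.0 to 57.8 FPKM in control WT lungs, with all 5 below 0 (median -0.58) and no call. The part of these cells in the endothelial values was not tested.

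The presence of a primary tumor was compared with control lungs within each genotype, and these comparisons share the lungs used above. In KO mice, 169 genes (1.05%) were called, 74.0% of them higher at 14 days (58.5% with GC offsets and the block), and *Eng* was higher at 14 days, at 128 ± 10.9 FPKM (SD, n = 6) against 111 ± 8.62 (SD, n = 4). Its log2 fold change was 0.29 (SE 0.08, adjusted p = 0.206, edgeR). The call was lost without 14-day KO lungs 1 or 4 or control KO lungs 2, 3 or 4 (adjusted p 0.313 to 0.496), and over 10 other alternatives the adjusted p ran from 0.0677 to 0.485. *S1pr1* had the largest log2 value of the 10 in KO mice (-0.32, SE 0.17, adjusted p = 0.626) and passed with the replicate number as a block (-0.48, adjusted p = 0.201, of a range of 0.201 to 0.749 over 10 alternatives). In WT mice, 373 genes (2.33%) were called and none of the 10, with *Eng* at 128 ± 12.7 FPKM (SD, n = 6) against 133 ± 10.7 (SD, n = 4). In WT mice 1 of the 10 genes had an unadjusted p under 0.05, as did 1884 of 16029 genes, namely *Ednrb* (-0.22, SE 0.08, adjusted p = 0.287, edgeR), which passed without 14-day WT lung 1 (adjusted p = 0.246) and with GC offsets (adjusted p = 0.248, of a range of 0.248 to 0.444 over 10 alternatives). *Acvrl1* (0.02, SE 0.09) passed with GC offsets and the block together (0.17, adjusted p = 0.219, of a range of 0.219 to 0.991). With DESeq2 in place of edgeR, none of the 10 was called in WT mice.

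The interaction of genotype and tumor, which tests whether these responses differ, called 8 genes (0.0499%) and none of the 10, of which 2 had an unadjusted p under 0.05, as did 1367 of 16029 genes. *Eng* had the smallest p (difference 0.33 on the log2 scale, SE 0.11, unadjusted p = 0.00651, adjusted p = 0.419, edgeR), and *Plvap* followed (0.38, SE 0.16, adjusted p = 0.522). With DESeq2, which called 178 genes, *Eng* was called (adjusted p = 0.230, the lowest of 9 alternatives that reached 0.881), and edgeR called it without control KO lung 1 (adjusted p = 0.233). Of the pathway lists in KO mice, the sphingosine-1-phosphate genes *Spns2* (0.35, SE 0.08, adjusted p = 0.109) and *S1pr4* (0.53, SE 0.15, adjusted p = 0.223) and the inhibitory *Smad7* (0.33, SE 0.10, adjusted p = 0.247) were higher at 14 days. In WT mice *Klf2* (-0.67, SE 0.20, adjusted p = 0.202) and the BMP target *Id1* (-0.56, SE 0.17, adjusted p = 0.209) were lower and *Smad5* (0.16, SE 0.05, adjusted p = 0.238) was higher. Of the vessel lists, all 7 venous genes tested lay above 0 at 14 days in both genotypes (median 0.14 in KO and 0.17 in WT mice), with *Nr2f2*, a transcription factor of venous fate, called in KO mice (0.39, SE 0.11, adjusted p = 0.218) and *Slc6a2*, a noradrenaline transporter, in WT mice (0.70, SE 0.20, adjusted p = 0.193). In KO mice the transcription factor *Tbx2* of the aerocyte list was also higher (0.38, SE 0.11, adjusted p = 0.233) and the laminin gene *Lamb1* of the tip cell list lower (-0.22, SE 0.05, adjusted p = 0.126). In WT mice the caveolar *Cav2* was higher (0.21, SE 0.07, adjusted p = 0.246).

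Markers of other cells varied beside these responses. The 5 platelet markers summed to 34.7 to 73.1 FPKM in 14-day KO and 27.4 to 38.9 FPKM in control KO lungs, and *Itga2b* was called (0.82, SE 0.24, adjusted p = 0.224). The red cell markers lay above 0 for 5 of 5 in KO mice (median 0.42), for 1 of 5 in WT mice (median -0.13) and for 5 of 5 in the interaction (median 0.54), with no call. Of the leukocyte markers, 7 of 10 lay above 0 in KO mice (median 0.33, no call) and 6 of 10 in WT mice (median 0.07). In WT lungs the neutrophil genes *S100a8* (2.02, SE 0.54, adjusted p = 0.164) and *S100a9* (2.05, SE 0.56, adjusted p = 0.169) were higher at 14 days, and *Col1a1* (-0.73, SE 0.20, adjusted p = 0.161) and the lung epithelial *Sftpb* (-0.26, SE 0.08, adjusted p = 0.209) were lower. There *S100a8* ran from 48.1 to 235 FPKM against 17.6 to 44.0 FPKM in control lungs. In KO lungs neither was called, with *S100a8* from 20.1 to 233 FPKM at 14 days against 23.9 to 52.1 FPKM and mean *S100a9* of 216 against 67.3 FPKM. Platelets also express *Pecam1*, and the part of these cells was not tested.

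The host effect in tumors was also set against that in 14-day lungs in 1 fit of all 32 samples, where 179 of 16825 genes (1.06%) were called. *Acvrl1* was the 1 gene of 10 called, with a host difference larger in tumors than in lungs by 0.76 on the log2 scale (SE 0.14, adjusted p = 0.00439, edgeR). In lungs *Acvrl1* measured 140 to 175 FPKM in KO and 131 to 183 FPKM in WT hosts at 14 days, a log2 fold change of -0.03 (SE 0.08). The next were *Plvap* (0.59, SE 0.19, adjusted p = 0.154), *Eng* (0.33, SE 0.14, adjusted p = 0.317) and *Car4* (1.01, SE 0.47, adjusted p = 0.388). Without WT-host tumor 6, *Car4* (2.23, adjusted p = 0.000276) and *Plvap* (0.70, adjusted p = 0.0457) passed too, where other leave-outs gave up to 0.526 and 0.256. The labels do not say whether a tumor and a lung of the same number came from 1 mouse.

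The 10 genes varied together more in tumors than in lungs, as a description of deviations from group means. Over 12 tumors the median Pearson r of the 45 pairs of genes was 0.50, with 42 pairs above 0, from -0.10 (*S1pr1* and *Car4*) to 0.90 (*Pecam1* and *Plvap*). Over 20 lungs the median was 0.03, with 25 pairs above 0, from -0.56 (*Cdh5* and *Tek*) to 0.74 (*Eng* and *Plvap*). The points share library, depth and base composition. No such values were taken over pairs of other genes, so a trait particular to these 10 is not shown. Outside the 10, the genes most like their mean deviation were *Cxcl12* (r = 0.96), *Syt15* (0.96), *Adamts5* (0.96), *Rgma* (0.96) and *Tnxb* (0.95) among 13820 genes over 12 tumors. Over 20 lungs they were *Arfip2* (0.88), *Chd3* (0.86), *Rgl3* (0.83), *Tceb2* (0.83) and *Atp5d* (0.82) among 16019 genes.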

How the data were processed

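RNA of 32 mouse samples was measured by stranded, paired-end mRNA sequencing. The authors aligned reads to GRCm38 (mm10 per the labels) with STAR and quantified genes with RSEM. They deposited expected counts as whole numbers, without normalization, and FPKM values, scaled by transcript length and library total, in which Rn7s1, Rn7s2 and Rn7sk take 58.1 to 70.2%. The annotation release is not given in the sources used here.

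FPKM described levels. Differences were tested on the counts with edgeR 4.0.16 (R 4.3.3): filterByExpr, TMM, the quasi-likelihood test, 1 mean per group and Benjamini-Hochberg adjustment over all genes tested, in separate fits of 12 tumors, 20 lungs and, between tissues, all 32 samples. The limits were an FDR of 0.05 in tumors and between tissues and of 0.25 in lungs, which the study used for genes in 14-day against control lungs and which was applied here to KO against WT lungs too. An SE is the log2 fold change divided by the square root of F. The p-values rest on the spread between samples within groups. The fit of all 32 samples treated tumors and 14-day lungs as independent, though the labels do not say whether some came from the same mouse. Which KO and WT mice were littermates is not given. Alternatives were DESeq2 1.42.0, limma 3.58.1 on log2(FPKM + 1) and log2(FPKM + 0.1), size factors by RLE, leaving low counts in, a minimum of 10 counts per sample, only the compared groups, the replicate number as a block, other limits and leaving out each sample. After the values were seen, offsets for transcript GC content (loess, span 0.5) were added. DESeq2, edgeR and limma with a pseudocount of 1 were first run on simulated counts for 1 comparison of each fit. The known changes were 2-fold in well-counted genes, and other comparisons, settings and smaller changes were not simulated. No replicates of a group were alike within sampling noise (chi-squared per degree of freedom 2.55 to 16.5 over 72 pairs).

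The 10 genes and the lists were chosen with earlier results of these data known. Named are the 10 genes, *Clic4*, at most the 4 called genes with the smallest p of each list and comparison, and the 5 genes most like the mean deviation of the 10 in each tissue. *Selp*, *Ackr1*, *Gdf2*, *Epcam*, *Cdh1*, *Elf5*, *Krt8*, *Krt18* and *Krt19* were named after their values were seen, as were *S100a8* and *S100a9* in KO lungs and *Ece2*. Ccl21a, whose symbol several genes share, was left out.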

Additional observations from a re-analysis of the deposited data

Results flagged for a closer look

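In 60 sets of values, 1 for each of the 10 genes in each group, Dixon's test at 95% found 5 samples that stood apart from their group, where chance gives about 1 in 20. *Tek* measured 106 FPKM in 14-day WT lung 3, against 117 to 123 FPKM in the others. *Tie1* measured 35.2 FPKM in 14-day WT lung 5, against 46.9 to 52.8 FPKM. *Eng* measured 11.5 FPKM in WT-host tumor 1, against 6.50 to 8.14 FPKM, but 25.5 TMM-normalized CPM there lay within the 20.7 to 26.6 CPM of the others. *Car4* measured 12.8 FPKM in WT-host tumor 6, against 1.17 to 3.14 FPKM. *Plvap* measured 127 FPKM in control KO lung 1, against 88.6 to 94.4 FPKM.

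The host difference of *Acvrl1* was larger in tumors than in 14-day lungs by 0.76 on the log2 scale, by a test of the difference itself (SE 0.14, adjusted p = 0.00439, edgeR).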

How the results depend on the processing

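Of 1156 values of the 10 genes recomputed under alternatives other than leaving out a sample, 1086 kept direction and side of the limit, 37 lost and 14 gained a call, 19 changed sign with no call on either side, and none reversed a call. Leaving out 1 sample in turn kept 2191 of 2280. Of the 10, the genes called between tumors numbered 1 (*Acvrl1*), with 0 under the 2-fold limit, 3 at an FDR of 0.25 and 1 to 3 leaving out a tumor. The host effect in tumors minus lungs had 1, with 0 and 2 under these limits and 1 to 3 leaving out a sample. For KO against WT lungs at 14 days, 1 became 0 without a filter, with limma at both pseudocounts, with the block, with the 1.5-fold limit, at an FDR of 0.05 and with only the compared groups, and 2 with GC offsets with or without the block (0 to 1 leaving out a lung). In controls, 1 became 0 under the same settings but for only the compared groups (3), with DESeq2 3, at 10 counts in every sample 2, and 0 with GC offsets with or without the block (0 to 3). Over both settings, 3 became 0 with limma and under both limits, 2 without a filter (*Car4* lost, adjusted p = 0.356), 1 with GC offsets (*Tie1* and *Plvap* lost, 0.264 and 0.335) and 2 with GC offsets and the block (*Plvap* lost, 0.333) (0 to 4 leaving out a lung). At 14 days against controls, KO mice went from 1 to 0 with limma and under both limits and to 2 with the block (0 to 1), and WT mice from 0 to 1 with GC offsets without (*Ednrb*) or with the block (*Acvrl1*) (0 to 1). The interaction went from 0 to 1 with DESeq2 (0 to 1). Between tumors and 14-day lungs 10 became at least 9. The genes wholly lower in tumors stayed at 10 and those wholly higher relative to *Cdh5* were 4 by counts and 3 by FPKM. Calls over all genes moved too. Between tumors there were 347 (189 to 549 over other tools, filters, blocks and offsets, 203 to 488 leaving out a tumor, 146 under the 2-fold limit and 1446 at an FDR of 0.25), in 14-day lungs 138 (41 to 202, 69 to 218, and 34 and 15 under the lung limits), in control lungs 156 (6 to 1189, 5 to 468, 37 and 3), over both settings 350 (96 to 529, 86 to 961, 38 and 28), at 14 days against controls 169 in KO (14 to 513, 9 to 299, 42 and 6) and 373 in WT mice (62 to 582, 43 to 753, 92 and 0), for the interaction 8 (0 to 178, 1 to 127, 5 and 1) and for tumors minus lungs 179 (95 to 302, 114 to 323, 93 and 981). Same-number correlations ran from -0.28 to 0.24, and in no pair of groups were all above 0.1, so the numbers were not taken to pair the samples. For tumors and 14-day lungs of KO hosts they ran from 0.04 to 0.17, 3 of 6 were above 0.1 and 4 of 6 samples correlated best with their own number. The limit of 0.1 cannot exclude that such a tumor and lung came from the same mouse. The block gave 257 calls between tumors, 98 in control lungs and, at 14 days against controls, 513 in KO and 582 in WT mice. The causes were not tested, beyond the fewer samples or genes that a setting leaves. At this depth, *Car4*, *Tek* and *Tie1* in tumors rested on at most 64, 82 and 86 counts a sample.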
